A study of Arabidopsis thaliana with 128 samples.

Results

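The 55 transposable elements (TEs) described here had reads in shoot stem cell nuclei of unstressed *poliv* mutants of Arabidopsis at day 7. Such nuclei of the wild type (wt) held fewer or none at that day. Among the 31189 TEs of the deposited table the 55 were chosen by 4 limits on measured values. The mean normalized count in *poliv* control stem cell nuclei at day 7 (CS7) had to be at least 10 and at least 4 times the wt CS7 mean plus 1. The mean had to lie below 20 in *ddm1* control seedlings (CT7) and below 20 in heat-stressed wt seedlings (HT7), which keeps out TEs that seedlings show without DDM1 or after heat in wt. Differences that involve *poliv* CS7, wt CS7, *ddm1* CT7 or wt HT7 are therefore given as a description, without a test, and tests are confined to the other groups. TEs are named by the identifiers of the table, whose first digit is the chromosome.

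All plants were of the Col-0 ecotype and carried a nuclear mCherry reporter under the *CLV3* promoter, which labels stem cells of the shoot tip, and the controls carry it too. The *poliv* plants hold an insertion in the largest subunit of RNA polymerase IV (PolIV), the *ddm1* plants an insertion in the chromatin remodeler gene *DDM1*, and wt is the reporter line itself, each genotype being represented by 1 line. Seedlings were stressed at 37 °C for 1 d or kept as controls, and the heat-treated plants of day 28 had then grown for 21 d without stress. At day 7 there were 8 heat-stressed (HS7) and 8 control (CS7) libraries of sorted stem cell nuclei per genotype, and 4 HT7 and 4 CT7 libraries of seedling tissue, with 3 for *poliv* CT7. At day 28 there were 4 libraries each of stem cell nuclei after heat (HS28) and in controls (CS28) and of inflorescence tissue after heat (HI28) and in controls (CI28), with 3 for *ddm1* HS28, *ddm1* HI28 and wt CI28. Nonstem cell nuclei of day 7 came from wt alone, in 6 heat-stressed (HN7) and 6 control (CN7) libraries.

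PolIV transcribes silent TEs into short precursors that RDR2 copies into double strands and DCL3 cuts into small RNAs. Argonaute proteins load these small RNAs and guide the DRM2 methyltransferase to matching DNA, a route known as RNA-directed DNA methylation. DDM1 lets the maintenance methyltransferases reach TEs packed in nucleosomes, mainly long elements of the heterochromatin around the centromeres. PolIV is known to act mostly on short TEs and on the edges of long ones, many of them near genes.

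Libraries of day 7 nuclei held 1853992 to 5813317 reads and those of day 28 nuclei 2615204 to 6999950, against 8614232 to 17611137 in seedling and 7456669 to 15016702 in inflorescence libraries. A single read stood for 0.428 to 2.37 normalized counts in S7 libraries, so that a value of 0 in a library does not show that a TE was silent. The summed level of *CLV3*, *AGO5*, *AGO9* and the reporter, all marks of stem cells, had a median of 298 in *poliv* CS7, 38.7 in *ddm1* CS7 and 318 in wt CS7, against 6.12 in wt CN7. The summed level of 6 genes of other cells, among them *RBCS1A*, *LHCB1.1* and *CA1*, had medians of 42353 in *poliv* CS7, 75541 in *ddm1* CS7 and 41471 in wt CS7, so that such genes were read in the sorted nuclei as well. In *ddm1* CS7 each of the 4 stem cell marks averaged less than in *poliv* and wt CS7, whereas the higher sum of the other genes came from *RBCS1A* and *LHCB1.1*, with *CA1* at 518 in *ddm1*, 645 in *poliv* and 691 in wt CS7, and their part in the levels of *ddm1* was not tested. *AT1TE44450*, the TE with the highest level in *ddm1* CS7 at 78430 ± 7910 (SD, n = 8), stood at 0.438 ± 1.24 in *poliv* CS7 and 0.596 ± 0.885 in wt CS7 (SD, n = 8 each). The most abundant TE of *ddm1* was thus at or near 0 in the other two.

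Summed over the 55 TEs, the level in CS7 was 3729 ± 293 in *poliv*, 3813 ± 275 in *ddm1* and 112 ± 34.3 in wt (SD, n = 8 each), of which the values of *poliv* and wt follow from the choice. The *ddm1* CS7 libraries had no part in the choice, but its limit in *ddm1* CT7 left out TEs that were high in *ddm1* seedlings. The sum of *ddm1* rested on few TEs. *AT2TE24335* and *AT1TE38530* made up 58.9% of it, while the 2 highest TEs of *poliv* CS7 made up 20.6% of the *poliv* sum. The mean was highest in *poliv* for 41 of the 55 TEs and in *ddm1* for 14. This split is partly set by the choice, which asked for a high mean in *poliv* CS7 and a low one in *ddm1* CT7. Of the TEs, 46 had a read in all 8 *poliv* CS7 libraries, and 3 (*AT5TE36920*, *AT5TE39170* and *AT2TE11695*) had over 50% of their *poliv* CS7 signal in 1 library. The 3 TEs are named here after their values were seen.

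**Figure D1:**
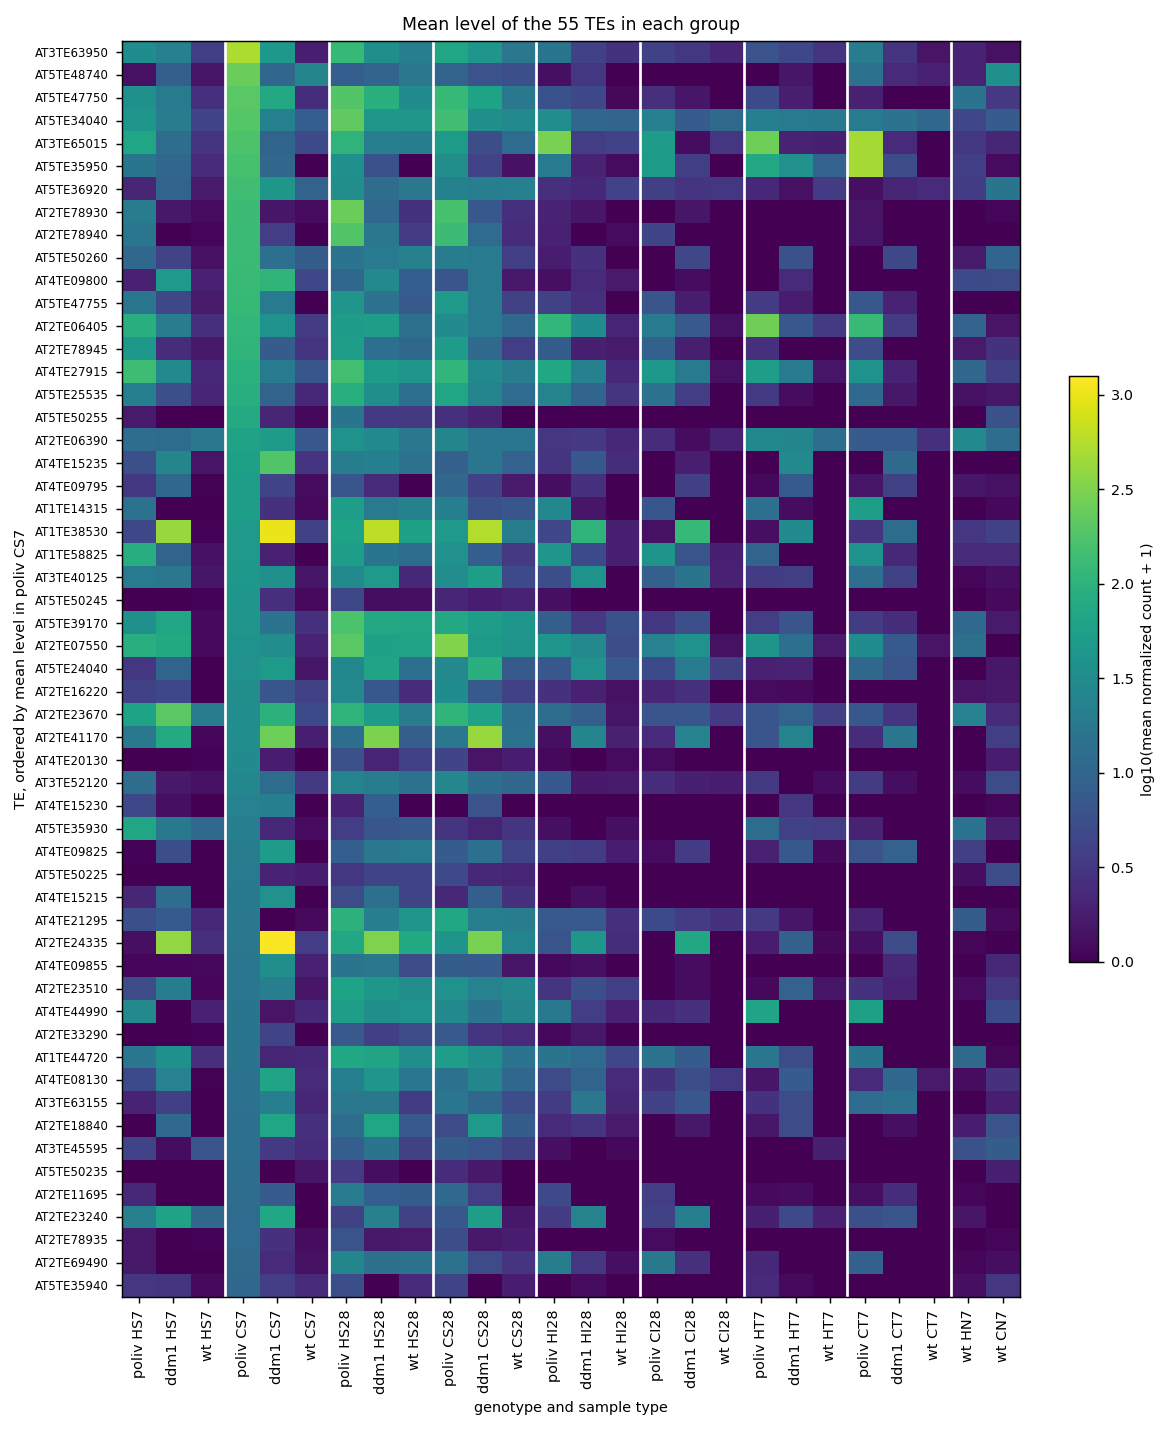
Mean normalized count of the 55 TEs (rows, ordered by the *poliv* CS7 mean) in each of the 26 groups (columns, by sample type and genotype), as log10 of the mean plus 1. Signal of the *poliv* columns runs through all rows in CS7, by choice, and reaches a mean of 10 in 10 to 16 rows in tissue (HI28, CI28, HT7, CT7), while *AT1TE38530* and *AT2TE24335* reach the highest values of the *ddm1* columns.

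The 6 TEs with the highest means in *poliv* CS7 lay on chromosomes 3 and 5. *AT3TE63950* ranged from 367 to 715 in the 8 *poliv* CS7 libraries (median 517), from 0 to 97.2 in *ddm1* CS7 (median 40.7) and from 0 to 4.21 in wt CS7 (median 0). *AT5TE48740* had a lowest value of 172, a median of 254 and a highest of 298 in *poliv* CS7, against 0, 21.4 and 61.98 in wt CS7. In nonstem cell nuclei of wt it had a median of 41.2 and a read in all 6 CN7 libraries. Among the 6 TEs it had the highest level in wt CS7. *AT5TE47750* averaged 199 ± 30.4 in *poliv* CS7, 74.3 ± 27.1 in *ddm1* CS7 and 1.58 ± 1.88 in wt CS7 (SD, n = 8 each). *AT5TE34040* averaged 189.8 ± 65.6 in *poliv* CS7 and 7.40 ± 5.18 in wt CS7, and all 8 wt libraries held a read of it. The other two were *AT3TE65015*, at 170.0 ± 52.4 in *poliv* CS7 against 3.91 ± 3.78 in wt CS7, and *AT5TE35950*, at 155 ± 43.4 in *poliv* CS7 with no read in any of the 8 wt CS7 libraries. In each of these 6 TEs the lowest *poliv* CS7 library lay above the highest wt CS7 library, a separation that largely follows from the choice by these same libraries.

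At the lower end of the choice, *AT5TE35940* reached 4.24 times and *AT2TE24335* 4.37 times the wt CS7 mean plus 1. Just outside it were *AT4TE52540* at 3.71 times and *AT1TE65500* at 3.41 times. Of the 72 TEs that met the limits on level and ratio, 16 failed the limit in *ddm1* CT7 and 4 that in wt HT7, with 3 failing both, and 42 of the 55 had a ratio of at least 8. Chromosomes 1 to 5 held 4, 17, 6, 12 and 16 of the TEs.

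Several of the TEs have identifiers that stand next to each other. In 5 runs, with 12 of the 55 TEs, the members follow each other directly in the table, and 23 of the 55 fall into 7 runs when neighbours may stand up to 5 places apart. No such count was made for TEs in general, so that nothing is read from these numbers. The longest direct run is *AT2TE78930*, *AT2TE78935*, *AT2TE78940* and *AT2TE78945*, with means of 134, 10.97, 130.3 and 106 in *poliv* CS7 and of 0.227, 0.263, 0 and 1.94 in wt CS7. A run of 5 on chromosome 5 holds *AT5TE50225*, *AT5TE50235*, *AT5TE50245*, *AT5TE50255* and *AT5TE50260*, and the 3 TEs between them had no read in any *poliv* CS7 library. *AT5TE50255* averaged 76.7 in *poliv* CS7, against 1.16 in *ddm1* CS7 and 0.177 in wt CS7. *AT5TE50260* averaged 129 in *poliv* CS7, 12.5 in *ddm1* CS7 and 7.17 in wt CS7, with 9.36 in wt CN7. Neighbours did not always share a pattern, as in the pair *AT4TE09795* and *AT4TE09800*, where *ddm1* CS7 stood at 3.22 for the first and 106 for the second. *AT4TE15230* and *AT4TE15235* had 22.9 and 56.7 in *poliv* CS7 and 20.6 and 181 in *ddm1* CS7. In the last pair, *AT5TE47755* stood at 117 in *poliv* CS7 beside the 199 of *AT5TE47750*. Neighbouring TEs can be read by 1 transcript, and counts per TE do not show whether this was so.

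Directly after heat, in HS7 libraries that had no part in the choice, 10 of the 55 TEs rose in *poliv* against wt. Of the 18421 features tested in this fit 0.201% were called higher and 0.0869% lower, and of the 582 TEs among them, which include members of the 55, 3.61% were called higher. A feature counts as called at an adjusted p under 0.05 and an absolute log2 fold change over 1, and it was tested where its mean over the libraries compared was at least 5, as was the case for 26 of the 55. A TE that passed this filter only through its level in *poliv* had to differ, so that the count is given over all 55. For the same reason nothing is read from the lack of lower calls in this and the following comparisons with wt. edgeR on recovered reads called 8 higher, of which 7 are among the 10. Beside these counts, the stem cell sum lay between 1027 and 1519 in *poliv* HS7 and between 656 and 1032 in wt HS7, the sum of the genes of other cells between 2793 and 3596 in *poliv* HS7 and between 3584 and 4145 in wt HS7. The 4 stem cell marks each averaged more in *poliv* HS7, but 2 of them had lower medians there. These were *CLV3*, with 15.3 in *poliv* HS7 and 16.4 in wt HS7, and the reporter, with 7.57 and 16.4. The reporter mean of 25.1 ± 43.0 (SD, n = 8) in *poliv* HS7 included a library at 129. Among the other genes *ATML1* went against its sum, with 124 in *poliv* HS7 and 83.4 in wt HS7. The part of the marks and of these genes in the result was not tested.

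The clearest was *AT4TE27915*, with 83.3 to 201 in the 8 *poliv* HS7 libraries (median 128) and 0 to 7.85 in wt HS7 (median 0.237). Its log2 fold change was 6.41 ± 0.80 (SE, limma, adjusted p = 4.9e-07), and the groups did not overlap. *AT1TE58825* ranged from 35.4 to 149 in *poliv* HS7, and 7 of the 8 wt HS7 libraries had no read of it (6.07 ± 0.83, adjusted p = 6.56e-06). *AT2TE07550* ranged from 23.3 to 243 in *poliv* HS7 and from 0 to 1.29 in wt HS7 (5.95 ± 0.84, adjusted p = 1.14e-05). *AT2TE06405* lay between 31.98 and 147 in *poliv* HS7 and between 0 and 9.51 in wt HS7 (5.43 ± 0.83, adjusted p = 4.87e-05). For these 4 TEs, whose *poliv* CS7 means lay between 38.2 and 112, every *poliv* HS7 library exceeded every wt HS7 library. *AT3TE65015* was again high, with a median of 55.6 in *poliv* HS7 and 1.38 in wt HS7 (4.68 ± 0.82, adjusted p = 0.000583). Of the run on chromosome 2, *AT2TE78945* had a log2 fold change of 4.79 ± 0.86 (adjusted p = 0.000827) and *AT2TE78930* one of 3.72 ± 0.87 (adjusted p = 0.0258). *AT5TE39170* ranged from 2.19 to 107 in *poliv* HS7 and was read in 1 of 8 wt HS7 libraries (4.28 ± 0.89, adjusted p = 0.00794). For *AT3TE63950* (3.71 ± 0.91, adjusted p = 0.0417) and *AT5TE47750* (3.76 ± 0.92, adjusted p = 0.0427) the groups overlapped. edgeR called neither of these, nor *AT2TE78930* (adjusted p = 0.053).

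**Figure D2:**
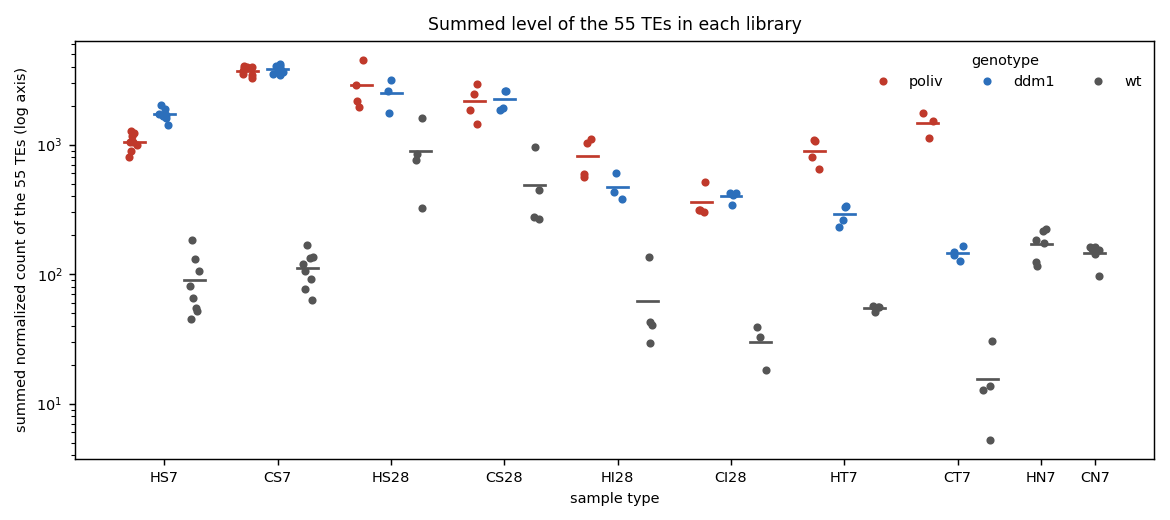
Summed normalized count of the 55 TEs in each library (points, log axis) with the group mean (bars), for *poliv*, *ddm1* and wt by sample type. In HS7 the *poliv* libraries lie between 797 and 1283, the *ddm1* libraries between 1428 and 2040 and the wt libraries between 44.7 and 182.

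Summed over the 55 TEs, HS7 nuclei reached 1055 ± 166 in *poliv*, 1716 ± 184 in *ddm1* and 89.3 ± 47.5 in wt (SD, n = 8 each). Compared with its own controls, *poliv* had 1055 ± 166 in HS7 and 3729 ± 293 in CS7. In *ddm1*, which the choice did not use in stem cells, the sums were 1716 ± 184 in HS7 and 3813 ± 275 in CS7. These differences depend on the scaling, since 1 read stood for a mean of 1.99 normalized counts in *ddm1* CS7 and 0.837 in *ddm1* HS7. As a share of all reads, the 55 TEs held 0.0331% to 0.0490% in *ddm1* HS7 and 0.0437% to 0.0696% in *ddm1* CS7, which overlap. In *poliv* the shares were 0.0302% to 0.0489% in HS7 and 0.0697% to 0.118% in CS7. Since the TEs were chosen for a high level in *poliv* CS7, a lower one in *poliv* HS7 is partly set by the choice and was not tested. The HS7 mean of *poliv* was under 0.1 times the CS7 mean in 25 of the 55 TEs and above it in 8. *AT5TE48740*, the second highest in *poliv* CS7, was read in 3 of 8 *poliv* HS7 libraries, with a highest value of 1.56, and *AT5TE50225*, *AT5TE50235* and *AT5TE50245* had no read in any. *AT5TE35930* was at the other end, with 64.6 in *poliv* HS7 and 20.1 in *poliv* CS7, as was *AT2TE07550* with 87.4 and 38.2. Beside these values, the summed level of the genes of other cells had a median of 3363 in *poliv* HS7 and 42353 in *poliv* CS7. The stem cell sum had one of 1127 in *poliv* HS7 and 298 in *poliv* CS7. Its rise came mostly from *AGO9*, with means of 759 in *poliv* HS7 and 189 in *poliv* CS7, and *AGO5*, with 385 and 92.0. *CLV3* averaged 25.4 in *poliv* HS7 and 32.3 in *poliv* CS7, while the reporter averaged 25.1 and 17.0, with medians of 7.57 and 12.5. In wt nonstem cell nuclei *LHCB1.1* averaged 157 in HN7 and 18101 in CN7. Neither sum therefore measures the purity of the sort alone, and their part in the difference was not tested.

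In stem cell nuclei of day 28, 8 of the 55 TEs rose in *poliv* CS28 against wt and 4 in *poliv* HS28 against wt. In CS28 0.122% of the 23012 features tested were called higher and 0.282% lower, and in HS28 0.0258% of 27179 were called higher and 0.00736% lower. Of the TEs tested 0.594% were called higher in CS28 and 0.0788% in HS28. These shares include members of the 55, which were 8 of the 15 TEs called higher in CS28 and all 4 in HS28. These nuclei held reads of most of the 55 TEs in wt as well. A library had a read of 46 to 54 of them in *poliv* CS28 and 33 to 48 in wt CS28, and of 47 to 54 in *poliv* HS28 and 31 to 49 in wt HS28. More features were read in these libraries than in those of day 7, with 25386 to 39570 in *poliv* CS28 and 28707 to 38488 in wt CS28, against 21921 to 23795 in wt CS7. In wt CS28 replicate 3 had both the most features and the highest sum of the 55 TEs, at 952, against 268 in replicate 2 with the fewest features, and the part of this in the levels was not tested. The sums were 2179 ± 658 in *poliv* CS28 and 484 ± 322 in wt CS28 (SD, n = 4 each), and 2881 ± 1162 in *poliv* HS28 and 887 ± 533 in wt HS28 (SD, n = 4 each). Of the 55, 41 passed the filter in CS28 and 44 in HS28. The stem cell sum was 573 to 633 in *poliv* CS28 and 649.5 to 713 in wt CS28, a difference carried by *AGO9* with means of 451 and 583. The reporter went the other way, with 45.8 in *poliv* CS28 and 7.03 in wt CS28, and *AGO5* stood at 84.3 in both, and the part of these in the result was not tested.

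The run on chromosome 2 led these fits. *AT2TE78930* had 141, 169, 158 and 165 in the 4 *poliv* CS28 libraries, against 0, 0, 3.94 and 2.75 in wt CS28 (log2 fold change 6.26 ± 0.54, adjusted p = 8.04e-06). In HS28 it had 208, 201, 215 and 384 in *poliv*, against 0, 0, 7.44 and 0 in wt (7.16 ± 0.72, adjusted p = 0.000114). Neither group overlapped with wt. *AT2TE78940* behaved alike, at 132 ± 19.1 in *poliv* CS28 and 1.34 ± 0.948 in wt CS28 (SD, n = 4 each, 5.89 ± 0.44, adjusted p = 1.29e-06) and at 181 ± 25.8 in *poliv* HS28 and 2.50 ± 2.92 in wt HS28 (6.21 ± 0.70, adjusted p = 0.000309). *AT2TE78945* was called in CS28, at 75.4, 49.7, 56.99 and 21.5 in *poliv* and 1.74, 0.742, 7.87 and 0.688 in wt (4.03 ± 0.65, adjusted p = 0.00516). *AT2TE78935*, between them, had 4.58 in *poliv* CS28 and 0.792 in wt CS28 and was not tested there.

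Other TEs of these fits had reads in wt too. *AT5TE34040* had 147, 118, 142 and 161 in *poliv* CS28 and 14.8, 27.4, 30.5 and 44 in wt CS28, groups that did not overlap (2.33 ± 0.29, adjusted p = 0.000404), and it was called in HS28 as well (2.44 ± 0.34, adjusted p = 0.00646). *AT5TE47750* was called in HS28 (2.73 ± 0.46, adjusted p = 0.0481), with 111 to 249 in *poliv* and 10.1 to 62.4 in wt, and its neighbour *AT5TE47755* in CS28 (3.80 ± 0.64, adjusted p = 0.00643). *AT1TE58825* (3.56 ± 0.59, adjusted p = 0.00597), *AT5TE35950* (4.69 ± 0.77, adjusted p = 0.00578) and *AT3TE65015* (2.45 ± 0.52, adjusted p = 0.042) complete the 8 of CS28. *AT3TE63950*, the leading TE of day 7, stood at 67.7 ± 18 in *poliv* CS28 and 16 ± 13.1 in wt CS28 (SD, n = 4 each) without passing the test (2.49 ± 0.67, adjusted p = 0.271). The count of CS28 was 15 without wt CS28 replicate 3 and 5 without *poliv* CS28 replicate 2, and that of HS28 was 2 without *poliv* HS28 replicate 1.

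In *poliv* tissue 30 of the 55 TEs had a mean of at least 1 in CT7, 31 in CI28 and 36 in HI28, against 54 in CS28 nuclei. A mean of at least 10 was reached by 16 in CT7, 10 in CI28 and 14 in HI28, against 35 in CS28 nuclei, and 20 had a mean under 1 in both *poliv* CT7 and CI28. In bulk tissue, fewer cells that carry a transcript and less of it per cell cannot be told apart, and stem cells are a small part of a seedling. In *poliv* CT7 7 of the 55 TEs rose against wt (13 tested), where 0.13% of all 16969 features were called higher and 0.0295% lower. In *poliv* CI28 and HI28 6 rose in each (10 and 16 tested), where 0.113% of 17699 features were called higher and 0.0509% lower in CI28, and 0.0985% of 18267 higher and 0.0109% lower in HI28. Of the TEs tested, which include members of the 55, 6.86% were called higher in CT7, 3.77% in CI28 and 2.82% in HI28. *CLV3* itself had no read in *poliv* CT7 and at most 3.52 in wt CT7.

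A pair of TEs made up 65.3% of the sum in *poliv* CT7. *AT3TE65015* had 409, 500.4 and 529 in the 3 *poliv* CT7 libraries and no read in the 4 wt CT7 libraries, at least 378-fold higher when 3 reads over the wt group are taken as a floor (adjusted p = 7.39e-07). *AT5TE35950* had 168, 753 and 512 in *poliv* CT7 and none in wt CT7, at least 377-fold higher (adjusted p = 7.00e-06). Both exceeded their *poliv* CS7 means of 170.0 and 155, though counts of tissue and nuclei come from different preparations. *AT2TE06405* followed with 118, 134 and 115 in *poliv* CT7 and none in wt CT7 (at least 96.5-fold, adjusted p = 8.93e-05). *AT4TE44990*, *AT1TE14315*, *AT4TE27915* and *AT1TE58825* averaged between 37.6 and 57.2 in *poliv* CT7, again with no read in wt CT7, and were at least 29.6-fold higher. The count was 3 in place of 7 without *poliv* CT7 replicate 1, without replicate 3 and without replicate 4, fits that rest on 2 *poliv* libraries.

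In inflorescence tissue *AT5TE35950* had 54.1, 67.9, 44.8 and 24.3 in *poliv* CI28 and no read in the 3 wt CI28 libraries (at least 37.7-fold, adjusted p = 4.01e-05). *AT4TE27915* had 38.6, 29.6, 31.3 and 76.5 in *poliv* CI28 against 0, 1.14 and 0 in wt CI28 (log2 fold change 5.02 ± 0.49, adjusted p = 0.000164), and 68.6 ± 17.5 in *poliv* HI28 against 1.28 ± 1.55 in wt HI28 (SD, n = 4 each, 5.13 ± 0.44, adjusted p = 2.46e-05). *AT1TE58825* was close to it, with 28.7 to 49.7 in *poliv* CI28 and 0 to 1.70 in wt CI28 (4.48 ± 0.46, adjusted p = 0.000279). In HI28 *AT1TE58825* had 27.99 to 51.7 in *poliv* and 0 to 1.77 in wt (4.64 ± 0.49, adjusted p = 0.000228). *AT2TE06405* was called in HI28, with 58.3, 82, 145 and 157 in *poliv* and 0, 0, 0 and 4.41 in wt (6.08 ± 0.55, adjusted p = 0.000174). *AT3TE65015* was called in CI28 (4.19 ± 0.67, adjusted p = 0.0467) and not in HI28, where its mean was 297 ± 156 in *poliv* and 3.21 ± 3.91 in wt (SD, n = 4 each, 6.62 ± 0.89, adjusted p = 0.109). In HT7, which the choice used for wt, *AT2TE06405* and *AT3TE65015* again led in *poliv*, at 264 ± 110 and 260.5 ± 101 (SD, n = 4 each), against 2.38 ± 1.41 and 0.855 ± 1.03 in wt HT7.

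**Figure D3:**
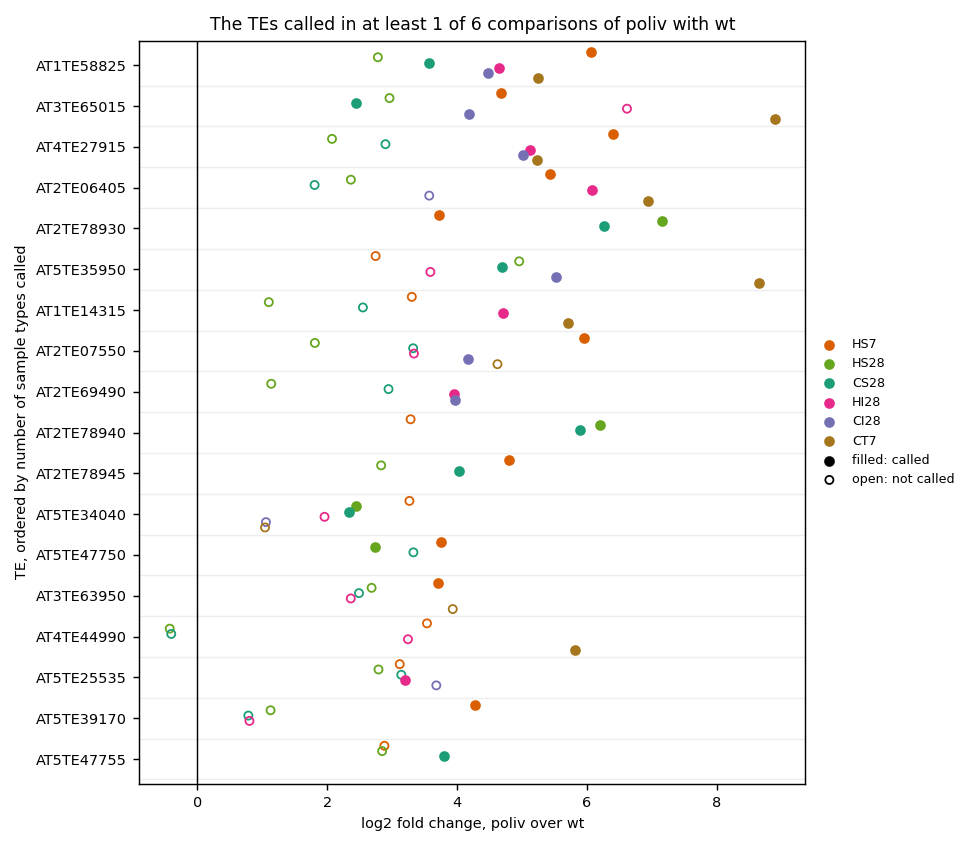
Fitted log2 fold change of *poliv* over wt (x axis) for the 18 TEs called in at least 1 of the 6 comparisons (rows), by sample type (colors). Filled points were called and open points were tested and not called. *AT1TE58825* has 5 filled points and *AT3TE65015* and *AT4TE27915* have 4, and fold changes of TEs with no read in wt depend on the added count of 1.

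Over the 6 comparisons of *poliv* with wt (HS7, HS28, CS28, HI28, CI28 and CT7), which share no libraries, 18 of the 55 TEs were called at least 1 time and 37 never. No share over all features was computed for the 6 fits together, and those of the single fits are given above. Of the 18, 6 were called in nuclei and in tissue, 8 in nuclei and not in tissue, and 4 in tissue and not in nuclei. Among the 8, *AT2TE78930*, *AT2TE78940*, *AT2TE78945*, *AT5TE47750* and *AT5TE47755* were tested in no tissue fit, so that they could not be called there. *AT1TE58825* was called in 5, *AT3TE65015* and *AT4TE27915* in 4, and *AT2TE06405*, *AT2TE78930* and *AT5TE35950* in 3. Of the 37 others 8 passed the filter in none of the 6 fits, so that these were never tested.

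A call in nuclei and none in tissue does not show that the 2 differ. The difference itself was fitted for the controls of day 28. The log2 fold change of *poliv* over wt in CS28 minus that in CI28 was called for 1 of the 55 TEs, *AT2TE78930*, at 6.26 ± 0.92 (adjusted p = 0.0172, 34 tested). It was the single feature called in either direction among 20856, or 0.00479%. In CI28 neither the 4 *poliv* nor the 3 wt libraries had a read of this TE, at depths above those of the nuclei. The TE therefore passed the filter through *poliv* CS28 alone, and its value repeats the CS28 fold change of 6.26 and is no independent test of nuclei against tissue. The call was lost with scaling by total reads, with edgeR, and without *poliv* CS28 replicate 2, *poliv* CS28 replicate 4, wt CI28 replicate 1 or wt CI28 replicate 2.

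**Figure D4:**
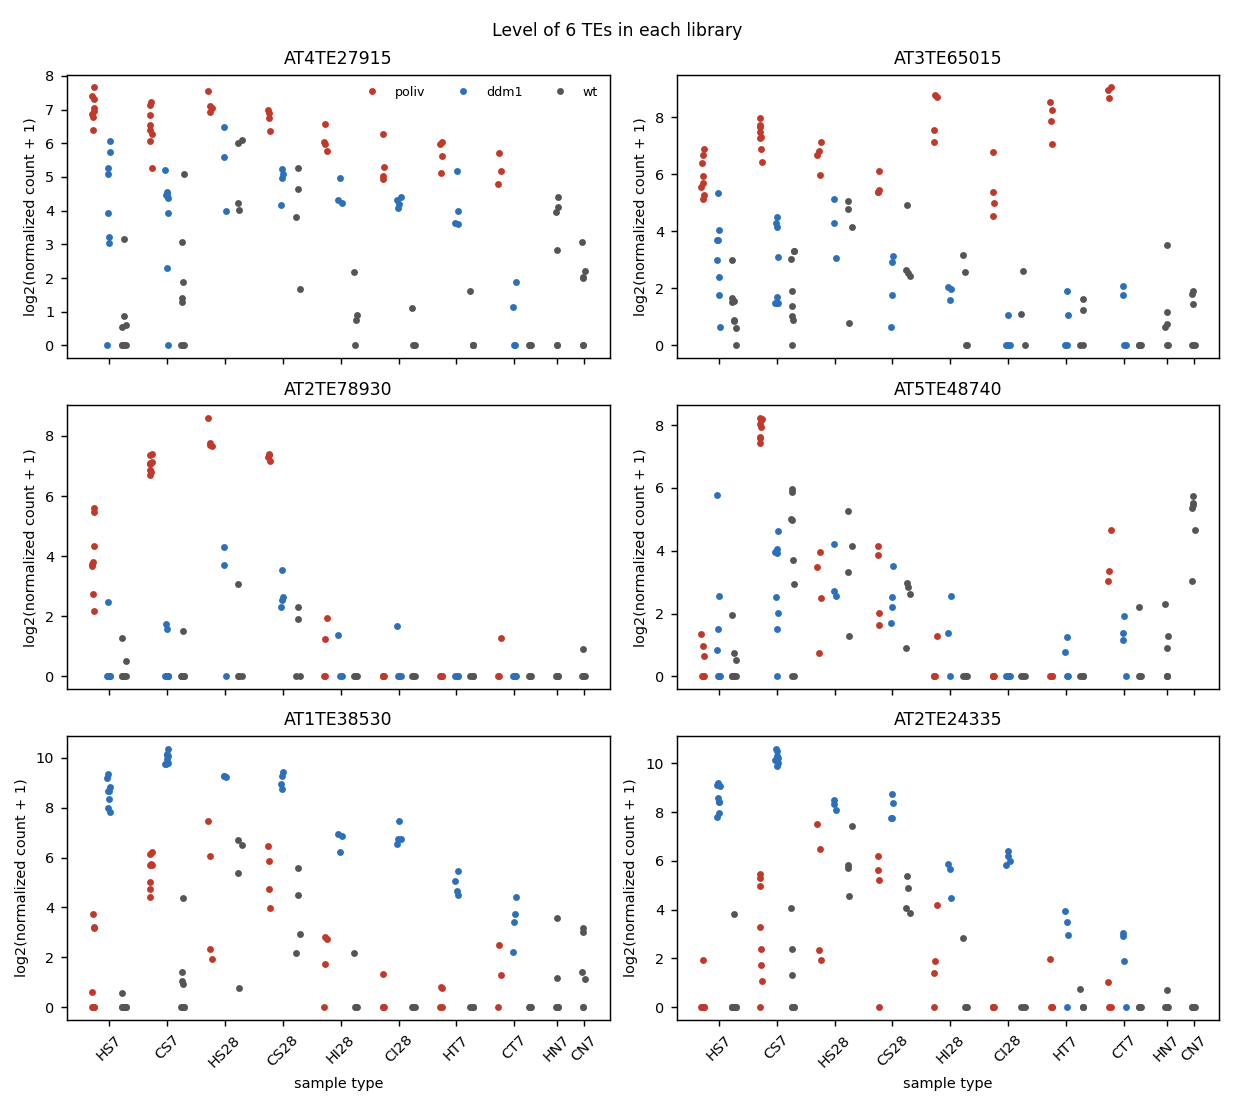
log2 of the normalized count plus 1 in every library (points) for 6 of the TEs, by sample type and genotype. *AT4TE27915* and *AT3TE65015* are high in *poliv* in nuclei and tissue, *AT2TE78930* in *poliv* stem cell nuclei, *AT5TE48740* in *poliv* CS7 with reads in wt CS7 and CN7, and *AT1TE38530* and *AT2TE24335* in *ddm1*.

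In *ddm1*, where the choice used CT7 alone, 19 of the 55 TEs rose against wt in HS7, 14 in CS28 and 8 in CI28 (25, 35 and 9 tested). Here the background was high. Of all features tested in *ddm1* 13.3% were called higher in HS7, 9.21% in CS28 and 7.76% in CI28, and of the TEs tested 78%, 50.9% and 83%. Against this background the counts are not a result about the 55. The stem cell sum had a median of 318 in *ddm1* HS7 and 846 in wt HS7, while the reporter averaged 71.4 in *ddm1* HS7 and 18.4 in wt HS7, and their part in these calls was not tested. *AT1TE38530* had a median of 403 in *ddm1* HS7 and 0 in wt HS7 (log2 fold change 8.54 ± 0.48, adjusted p = 7.72e-13), and 104.8, 175, 107 and 91.9 in *ddm1* CI28 against no read in wt CI28. *AT2TE24335* had medians of 361 in *ddm1* HS7 and 0 in wt HS7 (8.08 ± 0.59, adjusted p = 1.01e-10) and averaged 68.4 ± 11.5 in *ddm1* CI28 (SD, n = 4), again with none in wt CI28. In seedlings these 2 were low, with 11.5 ± 6.87 and 4.12 ± 3.38 in *ddm1* CT7 (SD, n = 4 each), values that the choice capped at 20.

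The mutants were compared directly in HS7, where 37 of the 55 TEs were tested, and *poliv* was higher than *ddm1* in 10 and lower in 9. Among all 20594 features, 2.73% were called higher and 12.3% lower, and among the 2297 TEs tested 1.18% higher and 74.7% lower. The choice asked for a high *poliv* CS7 mean and a low *ddm1* CT7 mean, which partly sets the balance among the 55. A TE that passed the filter only through its level in *poliv* or only through that in *ddm1* had to differ. Against these shares the counts are therefore not a result about the 55, and the values below are given for single TEs. *AT2TE24335* had a median of 0 in *poliv* HS7 and 361 in *ddm1* HS7 (log2 fold change -8.32 ± 0.52, adjusted p = 5.89e-12), and *AT1TE38530* one of 0.259 in *poliv* HS7 and 403 in *ddm1* HS7 (-7.27 ± 0.63, adjusted p = 2.28e-09). *AT4TE09800* ranged from 0 to 2.84 in *poliv* HS7 and from 21.2 to 70.4 in *ddm1* HS7 (-4.68 ± 0.60, adjusted p = 1.5e-06), although its CS7 means of 120.5 in *poliv* and 106 in *ddm1* were close. In the other direction *AT2TE78945* ranged from 13.2 to 81.7 in *poliv* HS7 and from 0 to 3.40 in *ddm1* HS7 (4.21 ± 0.65, adjusted p = 1.99e-05). *AT1TE58825* lay between 35.4 and 149 in *poliv* HS7 and between 0 and 21.6 in *ddm1* HS7 (3.69 ± 0.67, adjusted p = 0.00018), and *AT2TE78930* between 3.49 and 47.2 in *poliv* HS7 and 0 and 4.58 in *ddm1* HS7 (3.63 ± 0.68, adjusted p = 0.00025), with some overlap. The stem cell sum had a median of 1127 in *poliv* HS7 and 318 in *ddm1* HS7, while the reporter averaged 25.1 in *poliv* HS7 and 71.4 in *ddm1* HS7, and their part in these differences was not tested. With scaling by total reads the median log2 fold change of all features moved by 0.498, the counts among the 55 were 11 higher and 9 lower, and 46.5% of all calls were higher in *poliv* in place of 18.2%.

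**Figure D5:**
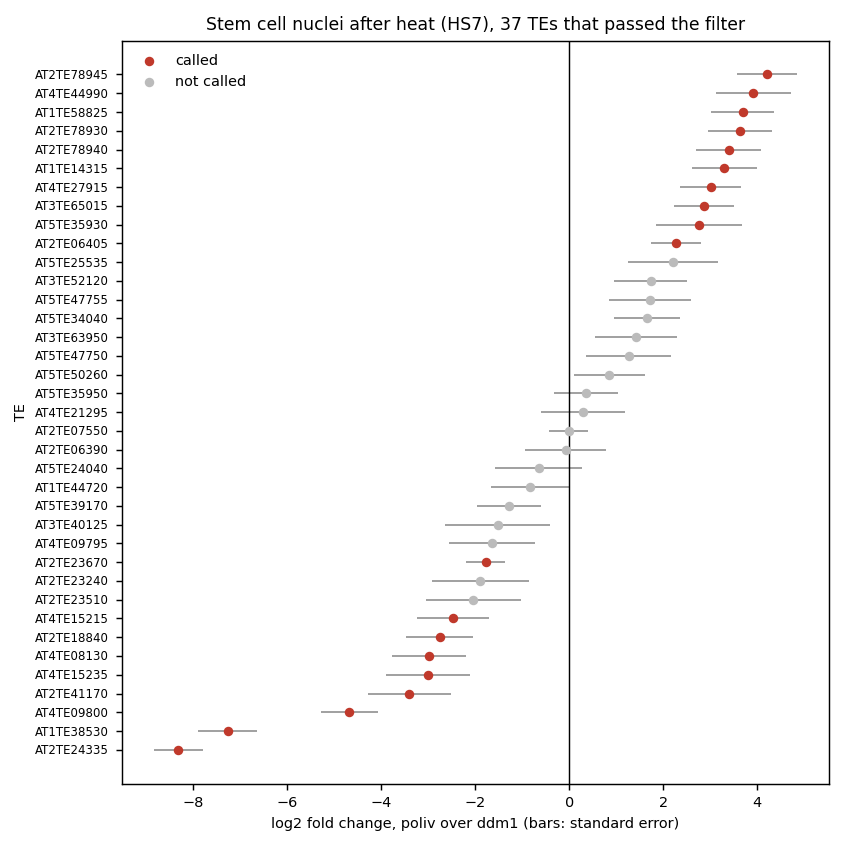
Log2 fold change of *poliv* over *ddm1* in HS7 (x axis, bars are standard errors, n = 8 libraries each) for the 37 TEs tested (rows). Called TEs (red) lie on both sides of 0, with 10 above and 9 below, from 4.21 for *AT2TE78945* to -8.32 for *AT2TE24335*.

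An after-effect of heat on the 55 TEs in *poliv* was tested in inflorescence tissue, 21 d after the stress. In HI28 against CI28 of *poliv* 1 of the 55 TEs rose (17 tested), where 0.881% of 18038 features and 6.98% of the 301 TEs tested were called higher, so that the count is not a result about the 55. It was *AT4TE44990*, named here after its values were seen, with 10.5, 6.56, 26.4 and 23.4 in *poliv* HI28 and 0, 0.956, 2.98 and 0.87 in *poliv* CI28 (log2 fold change 2.99 ± 0.61, adjusted p = 0.0247). The groups did not overlap. *poliv* HI28 replicates 3 and 4, which hold the higher values, stood apart with 28470 and 30082 features read, against 25033 and 23406 in replicates 1 and 2 and 21161 to 22616 in *poliv* CI28. Their sums of the 55 TEs were 1103 and 1025, against 598 and 566 in replicates 1 and 2, and the part of these libraries in the result was not tested beyond leaving out each. The call was lost without *poliv* HI28 replicate 3 or 4 or *poliv* CI28 replicate 1 or 2, and there were 5 calls without *poliv* CI28 replicate 4 and 2, of which 1 lower, without *poliv* HI28 replicate 2. *AT4TE44990* also had 92.8, 84.6, 35.5 and 45.1 in *poliv* HT7 with no read in wt HT7.

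Of 36 listed genes of the silencing pathways, 1 fell and 1 rose in *poliv* against wt in CS28 (34 tested) and in CI28 (33 tested), 1 fell in HS28 (34 tested), and none was called in HI28 (32 tested) or CT7 (25 tested), where 3 and 1 had an unadjusted p under 0.05 with limma and edgeR called 0. *ROS1*, a DNA demethylase gene that is itself kept active by methylation near its promoter, fell to 96.8 ± 29.1 in *poliv* CS28, against 621 ± 57.6 in wt CS28 (SD, n = 4 each, log2 fold change -2.71 ± 0.19, adjusted p = 6.14e-07). It was also lower in HS28 (-2.69 ± 0.23, adjusted p = 1.82e-05) and in CI28, at 17.4 ± 8.64 in *poliv* (SD, n = 4) and 158 ± 13.2 in wt (SD, n = 3, -3.24 ± 0.35, adjusted p = 0.00143). *SDC*, an F-box gene silenced by methylation of repeats in its promoter, rose to 55.6 ± 30.6 in *poliv* CS28, against 9.21 ± 5.34 in wt CS28 (2.56 ± 0.52, adjusted p = 0.0316), and was higher in CI28 (3.45 ± 0.58, adjusted p = 0.0316). edgeR called *ROS1* in CS28, HS28 and CI28 and did not call *SDC*. In HS7 none of the 34 genes tested was called by limma or edgeR, with 10 at an unadjusted p under 0.05. *NRPD1*, which encodes the largest PolIV subunit, was not called in any of the 6 comparisons of *poliv* with wt, and its total does not tell whether reads come from before or after the insertion.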

How the data were processed

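The mRNA libraries, 128 in 26 groups, were made from sorted nuclei or tissue, with Smart-seq v3 for stem cell nuclei of day 7 and v2 for those of day 28, seedlings and inflorescences by the methods of the study, and v2 throughout by the labels. The authors ran the nextflow rnaseq pipeline, counted reads over TAIR10 genes and TEs and normalized them with DESeq2. The deposited values are a signal, the reads of a feature divided by the size factor of its library. The aligner, counting tool and strand setting are not given in the sources used here, so that reads of a TE and of an overlapping or antisense gene, or of near-identical TE copies, cannot be told apart. Headers write 21 where the labels write wt. Another 52 columns hold means and SDs of the authors and were not used. The smallest value of a library was taken as 1 read, and 100% of its values above 0 came out as whole reads (tolerance 0.1). For 3 libraries this value lies too close to 1 to tell, and edgeR used the other 125.

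Comparisons used the moderated test of limma 3.58.1 (R 4.3.3), robust and with an intensity trend, on log2(normalized count + 1), with the groups compared, over all features with a mean of at least 5, with Benjamini-Hochberg adjustment over these. The added 1 understates changes of low features. Alternatives were a pseudocount of 5, no filter, scaling by total reads, edgeR 4.0.16 on recovered reads, a replicate block, leaving out replicates and, for HS7, a ratio of at least 8. The code was tested on simulated data. No source states that replicates come from separate plants, and p-values then cover only the spread of these libraries, which may be technical. Same-numbered libraries deviated together in every pair only in *poliv* and wt HI28 (correlations of 0.181 to 0.322), where the block gave 7 calls in place of 6. Members, gene lists and tests were chosen with earlier results of these data known. TEs named with values are the 6 highest in *poliv* CS7, the 8 with the smallest adjusted p in HS7, those called in 3 or more comparisons, those at the threshold, neighbours, and those called in the interaction or, up to 6, between *poliv* and *ddm1*. TE positions and sequences were not used here.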

Additional observations from a re-analysis of the deposited data

Results flagged for a closer look

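In groups of 4 to 10 libraries, the summed level of the 55 TEs had a library that stood far from the others in 5 of 22 groups, and chance sets apart about 1 in 20. The library apart was *poliv* CI28 replicate 4, at 510.4 with the next at 315, *ddm1* CI28 replicate 4, at 339 with the next at 411, wt HI28 replicate 4, at 136 with the next at 43.1, wt HT7 replicate 1, at 50.99 with the next at 55.6, and wt CN7 replicate 3, at 95.9 with the next at 143. Among the 6 TEs highest in *poliv* CS7, 2 of 40 sets of *poliv* libraries had such a library. *AT3TE65015* had 69.1 in *poliv* CS28 replicate 1 with the next at 42.9, and *AT5TE48740* had 1.42 in *poliv* HI28 replicate 4 with no read in the others. The difference of *poliv* against wt itself differed between CS28 and CI28 for *AT2TE78930*, by 6.26 on the log2 scale, by an interaction term in limma, a value that repeats the CS28 fold change since no CI28 library had a read. Causes were not tested.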

How the results depend on the processing

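No TE called among the 55 changed its direction under the alternatives run. The counts of *poliv* against wt in HS7 (8 to 10), *ddm1* against wt in HS7 (14 to 19) and *poliv* against *ddm1* in HS7 (13 to 20) stayed within 1.5 times under each alternative, where 8 replicates per group were not left out in turn. In CS28 the 8 calls became 14 with a pseudocount of 5 and 17 without a filter, and 5 to 15 when a library was left out. In HS28 the 4 calls became 7 without a filter and 2 with edgeR, and 2 to 5 when a library was left out. Without a filter there were 13 calls in place of 6 in HI28 and 13 in place of 8 for *ddm1* in CI28. Leaving out a library gave 4 to 7 calls in HI28, 4 to 8 in CI28, 3 to 8 in CT7, 11 to 18 for *ddm1* in CS28 and 7 to 8 for *ddm1* in CI28. For *poliv* HI28 against CI28 edgeR gave 3 calls in place of 1 and leaving out a library 0 to 5. The difference between CS28 and CI28 gave 2 calls with a pseudocount of 5, 0 with total reads, 0 with edgeR and 0 to 1 when a library was left out. With total reads the median log2 fold change of all features moved by 0.150 in HS28, 0.173 in CT7, -0.559 for *ddm1* in HS7, -0.113 for *ddm1* in CS28 and -0.202 for *ddm1* in CI28, and in *ddm1* HS7 47.0% of all calls were higher in place of 80.9%. The causes were not tested.

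Outside HI28, same-numbered libraries did not deviate together in every pair, though some pairs did. For *poliv* and wt the correlations were -0.117 to 0.473 in CS28 and 0.0275 to 0.457 in HS28. Whether these libraries share more than a number is not known. With a replicate block the calls were 15 in CS28, 8 in HS28, 1 in CI28, 5 in CT7, 8 in HS7, 18 for *ddm1* in HS7, 18 for *poliv* against *ddm1* and 5 for *poliv* HI28 against CI28 (4 higher, 1 lower). Of the single calls on TEs named in the text, edgeR kept 56 and lost 12, the block kept 59 and lost 9, and of those in fits where libraries were left out in turn 26 held in each case and 11 were lost at least 1 time. Single reads of 0.428 to 2.37 normalized counts limit what can be seen of low TEs in day 7 nuclei.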
